A study of Arabidopsis thaliana with 18 samples.

Results

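The comparison described here asked whether the change in a gene's RNA under abscisic acid (ABA) differed between roots of a vnd7 mutant and roots of the wild type Col-0 of Arabidopsis thaliana. It is the response of vnd7 (ABA against mock) minus the response of Col-0 (ABA against mock), taken for every gene, and it rests on 12 of the 18 libraries of the study. Of 34218 features in the count table, 20869 had enough reads to be tested, and those genes are the subject of what follows. The study treated seedlings aged 5 days with 1 µM ABA or a mock solution for 8 h and sequenced messenger RNA of their roots, 3 libraries for each genotype and treatment. The 4 groups used here were mock-treated Col-0, ABA-treated Col-0, mock-treated vnd7 and ABA-treated vnd7. The vnd7 line is described only as a mutant of VND7, with no allele named, and no further line stood for the same gene. The other mutant of the study, the vnd1 vnd2 vnd3 triple mutant vnd123, entered the model to share its estimate of the spread. Each sample was a pool of many seedlings grown under long days. Nothing in the labels says that replicates came from separate cultures; the spread behind each p-value is that of these samples and may be technical.

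ABA is the hormone of drought and osmotic stress. PYR/PYL receptors bind it and then block clade A PP2C phosphatases, which frees SnRK2 kinases to activate the ABF transcription factors and their dehydration genes. VND proteins, a group within the NAC family of transcription factors, start the formation of xylem vessels: they turn on MYB46 and MYB83, the cellulose, xylan and lignin enzymes of the secondary wall, and the proteases and nucleases of programmed vessel death. VND7 is the member best known for the protoxylem vessels of the root.

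Total counts ran from 45201382 to 52030490 per library in Col-0 mock, 38325491 to 46853414 in Col-0 ABA, 49195956 to 58705802 in vnd7 mock and 47945973 to 57756275 in vnd7 ABA. Levels are given in CPM (counts scaled to a common library total) on scaled library sizes, and responses and differences on the log2 scale, as a value ± its standard error. The first principal component, with 62.6% of the variance, separated all ABA libraries from all mock libraries. Marker lists for other root tissues held no gene at 0 in any group. The summed level of 11 root hair and epidermis markers was 451 to 492 CPM in Col-0 mock and 669 to 762 CPM in Col-0 ABA, against 398 to 468 and 625 to 707 CPM in vnd7. Photosynthesis genes (9 listed, 8 of them tested) mark greening tissue. The summed level of that list was 152 to 196 and 112 to 156 CPM in Col-0, against 114 to 157 and 89.4 to 132 CPM in vnd7. In bulk roots, fewer cells of a type and less RNA per cell cannot be told apart.

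The targeted gene was low in the line named for it. VND7 (AT1G71930) stood at 2.27, 2.13 and 2.55 CPM in the Col-0 mock libraries and at 5.50, 5.46 and 5.79 CPM in the Col-0 ABA libraries. In vnd7 it stood at 0.605, 0.227 and 0.354 CPM in mock and at 0.249, 0.230 and 0.406 CPM in ABA. The vnd7 groups lay below both Col-0 groups without overlap, reads remained in every vnd7 library, and the 2 vnd7 groups overlapped. VND7 was lower in vnd7 by edgeR's quasi-likelihood test, with a log2 difference of -2.56 in mock (adjusted p = 9.02e-05) and -4.24 in ABA (adjusted p = 1.16e-07). In Col-0 it rose by 1.27 ± 0.24 under ABA (adjusted p = 3.40e-04), whereas its fitted change in vnd7 was -0.42 ± 0.35 (adjusted p = 0.406). The difference of these responses was -1.69 ± 0.43, with a 95% interval of -2.58 to -0.79, and its adjusted p of 0.895 missed the threshold of 0.05.

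No gene passed the test of a different ABA response. In edgeR, 0 of 20869 genes (0%) reached an adjusted p under 0.05, and 835 genes (4%) had an unadjusted p under 0.05. Of those 835, 384 (1.84% of genes tested) had a higher response in vnd7 and 451 (2.16%) a lower one. The smallest adjusted p was 0.895, and the lowest under any alternative was 0.106, with DESeq2. DESeq2 and limma-voom also called 0 genes, with 906 and 826 genes at an unadjusted p under 0.05. The same count of 0 came from a model of the 12 libraries alone, in which the smallest adjusted p was 0.366, and from each of the 18 models that left out 1 library, in which it was at least 0.248 (without vnd7 ABA replicate 3).

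The intervals show which sizes of difference remained possible. The median difference over all genes was 0.00 on the log2 scale, and its 5th and 95th percentiles were -0.56 and 0.44. Differences were positive for 10590 genes and negative for 10279. The 95% interval of the difference lay within 1 log2 unit of 0, which is 2-fold, for 16874 genes (80.9%), and within 1.5-fold for 13139 genes (63.0%). Precision depended on level. Among the 7084 genes with a mean log2 CPM above 5, the median half-width of the interval was 0.24 and 99.1% lay within 1 log2 unit. From 2 to 5 the half-width was 0.34 and the share 96.4% of 8829 genes, and from 0 to 2 it was 0.71 and 51.7% of 2563. Below a mean log2 CPM of 0 the half-width was 1.77, and 0.919% of 2393 genes had such an interval; a 2-fold difference was not detectable at that depth for most of them. Fitted differences beyond 1 log2 unit were found for 804 genes, of which 754 had a mean log2 CPM of 1 or less.

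**Figure D1:**
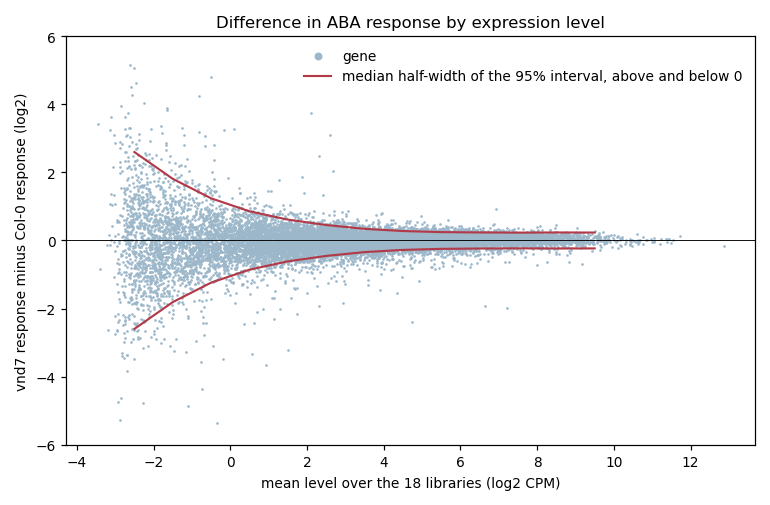
Difference between the ABA response of vnd7 and that of Col-0 (log2, vertical axis) against the mean level over 18 libraries (log2 CPM, horizontal axis), 1 point per gene, with 2 of 20869 genes outside the axes. The red lines give the median half-width of the 95% interval above and below 0 in bins of 1 log2 CPM; the cloud and the lines narrow together from half-widths near 1.77 below 0 to near 0.24 above 5.

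Both genotypes responded to ABA on a large scale and in the same directions. In Col-0, 3743 genes (17.9%) rose and 2789 (13.4%) fell, and in vnd7 3916 (18.8%) rose and 3026 (14.5%) fell. With unscaled library sizes the splits were 3050 up and 4075 down in Col-0 and 3053 up and 4449 down in vnd7. A total of 5229 genes passed in both genotypes, and 5228 of them changed in the same direction. Another 1303 genes passed in Col-0 alone and 1713 in vnd7 alone, and most of these had the same sign in the other genotype (1230 and 1627). Their responses were small, with median sizes of 0.41 and 0.37. Passing in 1 genotype alone did not mark a tested difference, since none of them passed in the direct comparison. Across genes the responses correlated with a Pearson r of 0.883 and a Spearman rho of 0.786, or a Pearson r of 0.957 over the 17389 genes with a mean log2 CPM above 1. The responses share no library, but genes are not independent replicates, and no p is given.

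The strong responses that passed in both genotypes had close median sizes. Over the 1691 genes that passed in both with a mean response beyond 1 log2 unit, 855 responded more in vnd7 and 836 less. Requiring a pass in both leaves out genes whose response was weak in 1 genotype, which favours close medians. The 1066 induced genes had median responses of 1.69 in Col-0 and 1.67 in vnd7, and the 625 repressed genes had medians of -1.59 and -1.64. For 991 of these 1691 genes (58.6%) the interval of the difference lay within 1 log2 unit.

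**Figure D2:**
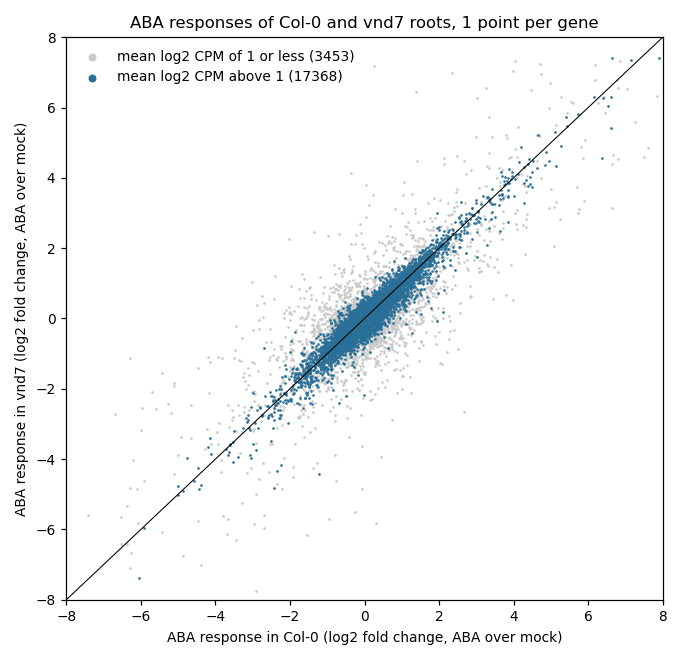
ABA response in vnd7 (vertical axis) against ABA response in Col-0 (horizontal axis), both log2 fold changes of ABA over mock, 1 point per gene, with 48 of 20869 genes outside the axes. Genes with a mean log2 CPM above 1 (blue) gather along the line of equal response (r = 0.957), and genes at lower levels (grey) scatter around it.

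The 1 gene that passed in both genotypes with opposite signs was AT3G06630, which the reference annotates as a protein kinase family member. Its level in Col-0 was 8.2, 8.37 and 8.90 CPM in mock and 10.4, 10.7 and 10.9 CPM in ABA, and in vnd7 11.2, 9.33 and 9.94 CPM in mock and 7.23 and 7.2 CPM in ABA replicates 1 and 2. The Col-0 groups did not overlap, whereas vnd7 ABA replicate 3 lay among the vnd7 mock libraries. The edgeR responses were 0.33 ± 0.12 (adjusted p = 0.037) and -0.31 ± 0.11 (adjusted p = 0.0409), and their difference of -0.64 ± 0.16 did not pass (adjusted p = 0.895). The call in Col-0 was lost in 13 of 27 alternatives, including each of the 6 Col-0 libraries left out. Its highest adjusted p was 0.128, without Col-0 ABA replicate 3. The call in vnd7 was lost in 6 of 27, with a highest adjusted p of 0.187 without vnd7 ABA replicate 1.

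None of the listed genes of the ABA pathway passed in the interaction. Of 14 receptor genes, 11 were tested. PYR1, PYL1, PYL4, PYL5, PYL6 and PYL8 fell in both genotypes, and PYL9 fell in vnd7 (-0.37, adjusted p = 0.00213) beside -0.19 in Col-0 (adjusted p = 0.0955). PYL3 rose in both, by 1.87 and 1.36, and PYL2 rose in vnd7 (0.40, adjusted p = 0.0122) beside 0.31 in Col-0 (adjusted p = 0.0504). The PYL2 call was lost without vnd7 ABA replicate 1 (adjusted p = 0.108) and without vnd7 mock replicate 2 (0.0522). PYL6 had the largest fall, from 72.6, 69.0 and 68.9 CPM to 2.63, 2.35 and 1.60 CPM in Col-0 and from 69.8, 62.5 and 64.9 CPM to 2.83, 2.36 and 1.97 CPM in vnd7. Its difference in response was 0.24 ± 0.22, with an interval of -0.23 to 0.70. The median difference over the receptors was 0.01.

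All 9 clade A PP2C genes rose in both genotypes, with median responses of 2.54 in Col-0 and 2.26 in vnd7. ABI1, a phosphatase that restrains the SnRK2 kinases, stood at 93.2, 85.0 and 91.0 CPM in Col-0 mock and 384, 381 and 312 CPM in Col-0 ABA, against 88.5, 81.1 and 87.5 CPM and 357, 356 and 362 CPM in vnd7. Mock and ABA groups did not overlap in either genotype, and the difference in response was 0.06 ± 0.12, with an interval of -0.19 to 0.32. HAI1, another phosphatase of the clade, rose by 5.74 ± 0.29 in Col-0 and 5.80 ± 0.29 in vnd7. AHG1, the phosphatase best known from seeds, had the smallest unadjusted p of the list. It went from 0.567, 0.883 and 0.618 CPM to 1.95, 1.87 and 1.47 CPM in Col-0 and from 0.770, 0.682 and 0.275 CPM to 2.74, 2.87 and 2.67 CPM in vnd7, a difference of 0.90 ± 0.42 (edgeR adjusted p = 0.895 or more, as for every gene tested; interval 0.01 to 1.78). HAI2 had 2 reads in vnd7 mock and 1384 in vnd7 ABA, a ratio of 766 with a counting interval of 212 to 6330. That interval covers counting noise alone, while replicates differed by more, and it is not a comparison with Col-0.

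Among 19 tested kinases and transcription factors of ABA signalling, 14 rose in Col-0 and 13 in vnd7, and the median difference was -0.11. The ABF factors ABF1, ABF2, ABF3 and ABF4 rose in both. The intervals for ABF2, ABF3 and ABF4 lay between -0.39 and 0.38. ABF1 rose by 0.69 in Col-0 and 0.47 in vnd7, with an interval of -0.45 to 0.01. RAV1, a repressor of ABA responses, fell by 0.98 ± 0.17 in Col-0 and by 1.58 ± 0.18 in vnd7. Its levels in the ABA libraries were 27.4, 20.5 and 18.9 CPM in Col-0 and 14.2 and 13.3 CPM in vnd7 replicates 1 and 2, with vnd7 replicate 3 above these and below all Col-0 ABA libraries, and the difference in response was -0.60 ± 0.24. MYB96, which links ABA to wax synthesis, rose by 2.71 ± 0.28 in Col-0 and 1.86 ± 0.26 in vnd7, a difference of -0.85 ± 0.38.

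Among genes of ABA turnover, NCED3, the main stress-induced enzyme of ABA synthesis, rose by 3.06 ± 0.25 and 2.73 ± 0.25. CYP707A1, an ABA hydroxylase, rose from 24.7, 31.1 and 34.2 CPM to 510, 393 and 412 CPM in Col-0 and from 27.3, 30.0 and 34.4 CPM to 440, 419 and 460 CPM in vnd7, with a difference of -0.02 ± 0.20. Of the 13 tested members of that list, 7 rose in Col-0, 6 rose in vnd7 and none fell in either.

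Dehydration genes gave the strongest induction. Of 23 tested members of the LEA and dehydration list, 22 rose in each genotype, with a fitted median of 3.77 in Col-0. In vnd7 the fitted median was 3.83, or 2.99 with members that had 0 reads in mock placed at their lower bound. RD29B, a classic ABA reporter, went from 0.0436, 0.226 and 0.131 CPM to 150, 198 and 76.8 CPM in Col-0 and from 0.238, 0.0162 and 0.118 CPM to 136, 124 and 114 CPM in vnd7. RAB18, a dehydrin, rose by 7.14 ± 0.36 and 7.35 ± 0.38. Few reads in mock make such differences imprecise, with intervals of -2.85 to 2.82 for RD29B and -1.09 to 1.51 for RAB18. LEA7 had 0 reads in vnd7 mock and 80867 in vnd7 ABA, which makes it at least 29800-fold higher when the group's 0 reads are replaced by 3. It had 12 reads in Col-0 mock, so its fitted difference depends on the prior count and is not read. Of the 23 members, 9 had an interval within 1 log2 unit, and the rest did not. COR47 rose by 1.47 ± 0.08 and 1.51 ± 0.08, with an interval of -0.18 to 0.26, and RD29A rose by 3.73 ± 0.15 and 3.91 ± 0.16, with an interval of -0.24 to 0.59.

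The vessel program that VND factors switch on was read next. None of the other VND genes passed in the interaction. VND2 and VND3, which act with VND1 in early vessel formation, rose in both genotypes, by 0.91 and 0.61 in Col-0 and by 1.37 and 0.52 in vnd7. VND4 rose by 0.51 and 0.48, with an interval of the difference of -0.31 to 0.25. For VND1 and VND5 the differences in response were 0.02 and 0.04. That of VND1 ran from -0.25 without Col-0 ABA replicate 2 to 0.38 without Col-0 ABA replicate 3. Of the 8 genes of this list, VND1 to VND7 and VNI2, 4 had an interval within 1 log2 unit. VNI2, a NAC protein that binds VND7 and represses it, rose by 0.59 ± 0.12 in Col-0 and 0.80 ± 0.12 in vnd7. VND6, the metaxylem counterpart of VND7, fell in vnd7 (-0.89, adjusted p = 0.0203) beside -0.59 in Col-0 (adjusted p = 0.144). The fall in vnd7 was lost without vnd7 ABA replicate 1 (adjusted p = 0.0911) or replicate 2 (0.0655). The difference was -0.29, and -0.82 without Col-0 mock replicate 3.

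Of 19 tested secondary wall transcription factors, 13 rose in Col-0 and 9 in vnd7, and none fell. MYB46, a direct target of VND factors and a master switch of the secondary wall, stood at 7.41, 5.83 and 5.70 CPM in Col-0 mock and 12.1, 10.3 and 12.3 CPM in Col-0 ABA, against 4.49, 4.79 and 5.31 CPM and 11.9, 11.3 and 10.5 CPM in vnd7. It rose in both genotypes, by 0.88 ± 0.15 and 1.21 ± 0.15, and the interval of the difference was -0.10 to 0.76. MYB83, its close relative, had responses of 0.52 and 0.53 that did not pass. MYB69 had the smallest unadjusted p of the list, with levels of at most 1.14 CPM in every library of the 4 groups and a difference of -2.08 ± 1.01 (-3.52 without Col-0 mock replicate 3).

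The cellulose and xylan genes of the secondary wall rose almost as a whole. In each genotype 19 of 20 tested members rose, none fell, and FLA12 did not pass. The medians were 0.61 in Col-0 and 0.59 in vnd7, the median difference was 0.03, and all 20 intervals lay within 1 log2 unit. CESA7, a subunit of the secondary wall cellulose synthase, stood at 48, 53.2 and 48.1 CPM in Col-0 mock and 79.5, 78.5 and 60.9 CPM in Col-0 ABA, against 48.6, 48.1 and 56.7 CPM and 91.3, 78.7 and 99.3 CPM in vnd7. CESA4, another subunit, had a difference of 0.00 ± 0.14, and the xylan synthesis gene IRX9 one of 0.09 ± 0.13. GUX2, a xylan glucuronosyltransferase, was the member with the smallest unadjusted p. It rose by 0.71 ± 0.08 in Col-0 and 0.98 ± 0.08 in vnd7, with an interval of the difference of 0.05 to 0.50.

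Lignin genes moved in both directions. FAH1, CAD4 and PRX71 fell in both genotypes, by 1.52, 0.63 and 3.64 in Col-0 and 1.29, 0.46 and 3.79 in vnd7, while PAL4, 4CL1 and CAD5 rose in both. The polymerising laccases LAC4, LAC11 and LAC17 rose in both genotypes, with differences of -0.05, -0.11 and -0.05. LAC17 stood at 28.7, 29.3 and 29.0 CPM in Col-0 mock and 71.9, 78.4 and 67.8 CPM in Col-0 ABA, against 33.7, 29.5 and 34.5 CPM and 76.0, 80.9 and 79.0 CPM in vnd7. Among the monolignol enzymes, C4H, HCT, CYP98A3 and COMT1 rose in vnd7 (0.20, 0.26, 0.23 and 0.24) beside 0.07, 0.16, 0.02 and 0.02 in Col-0, which did not pass. The vnd7 calls of C4H, CYP98A3 and COMT1 were lost with unscaled library sizes (adjusted p = 0.155, 0.0998 and 0.0568) and without vnd7 ABA replicate 2 (0.0888, 0.121 and 0.0718). They were also lost without vnd7 mock replicate 2 for C4H (0.138) and CYP98A3 (0.124), without vnd7 ABA replicate 3 for C4H (0.0691) and without vnd7 mock replicate 3 for COMT1 (0.0611). COMT1, a methyltransferase of lignin monomers, stood at 574, 547 and 540 CPM in Col-0 mock and 603, 549 and 530 CPM in Col-0 ABA, against 527, 494 and 477 CPM and 587, 625 and 563 CPM in vnd7. Its vnd7 mock libraries lay below those of Col-0 and the ABA libraries overlapped, and its difference in response was 0.23 ± 0.09. LAC11 was lower in vnd7 in mock (-0.58, adjusted p = 0.00977) and in ABA (-0.69, adjusted p = 7.96e-04). The mock call was lost in 4 of 26 alternatives, without Col-0 mock replicate 1 (0.0624), Col-0 mock replicate 2 (0.0755), vnd7 mock replicate 2 (0.150) or vnd7 mock replicate 3 (0.108), and the ABA call in none of 26. All 22 members had an interval within 1 log2 unit. The median difference was 0.13, positive in 16 of 22 (10590 of 20869 over all genes).

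The list of vessel cell death and wall patterning genes had a median difference of -0.12. It was negative in 9 of 11 tested members (10279 of 20869 over all genes). At an unadjusted p under 0.05 in edgeR, 2 members were lower, beside 2.16% of all genes. XCP1 and XCP2, vessel cysteine proteases, rose by 0.79 and 0.61 in Col-0 and 0.71 and 0.55 in vnd7. BFN1, a nuclease of programmed cell death, rose from 8.52, 10.3 and 7.89 CPM to 61.0, 55.0 and 52.5 CPM in Col-0 and from 11.1, 9.61 and 9.58 CPM to 44.5, 64.3 and 65.9 CPM in vnd7, with an interval of the difference of -0.59 to 0.33. All 11 intervals of the list lay within 1 log2 unit. XSP1, a xylem serine protease, fell by 0.41 ± 0.09 in Col-0 and 0.76 ± 0.09 in vnd7. ACL5, a thermospermine synthase that holds back vessel death, had the smallest unadjusted p. It fell in vnd7 (-0.27 ± 0.09, adjusted p = 0.036) beside 0.13 ± 0.09 in Col-0 (adjusted p = 0.337), and the difference was -0.39 ± 0.13 with an interval of -0.68 to -0.11. The fall of ACL5 in vnd7 was lost in 5 of 27 alternatives, among them the models without vnd7 ABA replicate 1 (adjusted p = 0.108), vnd7 ABA replicate 3 (0.0693), vnd7 mock replicate 1 (0.199) or vnd7 mock replicate 3 (0.0716).

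Suberin, the lipid barrier of the endodermis that ABA promotes, was induced broadly. Of 18 tested genes, 17 rose in Col-0 and 16 in vnd7, with medians of 1.07 and 1.24. Differences were positive in 14 of 18 (10590 of 20869 over all genes), with a median of 0.14. CYP86B1, which makes very long chain suberin monomers, stood at 70.8, 71.0 and 93.7 CPM in Col-0 mock and 154, 146 and 147 CPM in Col-0 ABA, against 66.1, 68.1 and 70.1 CPM and 155, 190 and 190 CPM in vnd7. Its vnd7 libraries lay below those of Col-0 in mock and above them in ABA, without overlap, and its difference was 0.47 ± 0.17, with an interval of 0.11 to 0.82. GPAT5, an acyltransferase of suberin synthesis, rose by 1.51 and 1.72, a difference of 0.20 ± 0.13. Aquaporins, the water channels, rose in 14 of 18 cases and fell in 1 in each genotype, and their median difference was -0.00.

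**Figure D3:**
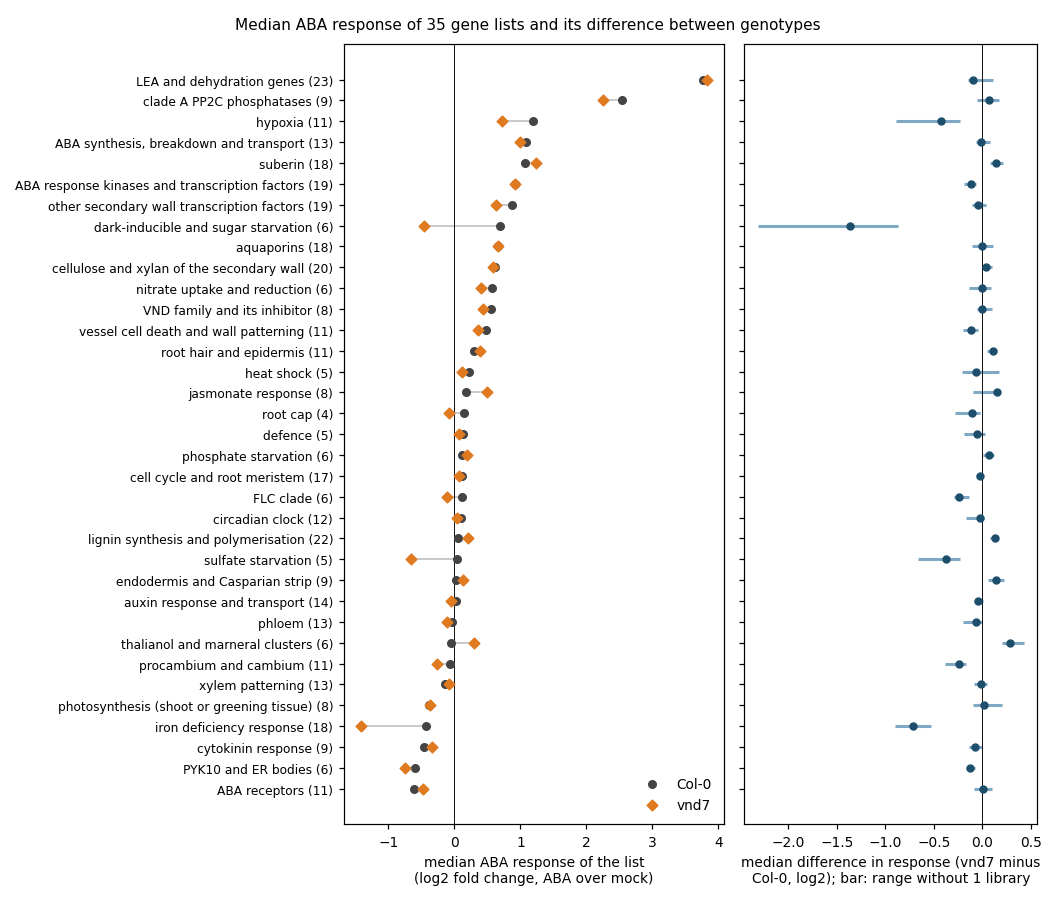
Left, median ABA response (log2 fold change of ABA over mock) of 35 gene lists in Col-0 (grey circles) and vnd7 (orange diamonds), with the number of members tested in brackets. Right, median difference in response (vnd7 minus Col-0, log2), with a bar from the lowest to the highest median when 1 library at a time was left out. The iron deficiency (-0.71) and dark-inducible (-1.36) lists lay farthest below it.

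Over all 35 lists, 400 of 426 members were tested, 0 passed in the interaction by edgeR (0% of all genes), and 38 (9.5%) had an unadjusted p under 0.05 beside 4% of all genes. The lists and members were chosen with earlier results of these data known, so these shares are a description and not a test. A median difference beyond 0.5 on the log2 scale was found for 2 lists.

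The iron deficiency response gave 8 of those 38 genes. In iron-starved roots the transcription factor FIT, with partners such as bHLH38 and bHLH39, turns on the ferric reductase FRO2, the iron transporter IRT1 and coumarin-secretion genes. FRO2 (AT1G01580) stood at 278, 247 and 147 CPM in Col-0 mock and 47.1, 31.5 and 62.9 CPM in Col-0 ABA, against 267, 173 and 159 CPM in vnd7 mock and 15, 11.4 and 7.07 CPM in vnd7 ABA. IRT1 (AT4G19690) stood at 439, 356 and 209 CPM and 69.8, 36.7 and 89.2 CPM in Col-0, against 403, 251 and 221 CPM and 18.5, 15.7 and 8.50 CPM in vnd7. The mock groups overlapped between genotypes for both genes, and every vnd7 ABA library lay below every Col-0 ABA library.

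Both genes fell under ABA in both genotypes. FRO2 fell by 2.24 ± 0.35 in Col-0 and 4.16 ± 0.39 in vnd7, and IRT1 fell by 2.36 ± 0.37 and 4.35 ± 0.41. The differences in response were -1.91 ± 0.49 (interval -2.95 to -0.88) for FRO2 and -2.00 ± 0.52 (interval -3.07 to -0.92) for IRT1, and neither passed over all genes. Read within the ABA libraries, FRO2 was lower in vnd7 (a log2 difference of -2.08, edgeR adjusted p = 0.0149) and IRT1 likewise (-2.19, adjusted p = 0.0138). In mock their differences were -0.16 and -0.20 (adjusted p = 0.969 and 0.964). The ABA calls were lost in 4 of 26 alternatives each, without Col-0 ABA replicate 1 (adjusted p = 0.0519 for both), without Col-0 ABA replicate 3 (0.0822 and 0.0767), without vnd7 ABA replicate 2 (0.0815 and 0.0648) and without vnd7 ABA replicate 3 (0.0976 and 0.0870). In ABA, 34 of all genes tested (0.163%) differed between vnd7 and Col-0, and in mock 14 (0.0671%). DESeq2 called 159 in ABA and 38 in mock.

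Their regulators did not pass either. FIT fell in both genotypes, from 137, 145 and 120 CPM to 43.7, 33.7 and 47.9 CPM in Col-0 and from 152, 128 and 127 CPM to 37.4, 43.9 and 36.2 CPM in vnd7, with an interval of the difference of -0.44 to 0.22. bHLH39 fell in vnd7 (-1.01 ± 0.17, adjusted p = 1.23e-04) beside -0.25 ± 0.17 in Col-0 (adjusted p = 0.311), a difference of -0.76 ± 0.24. bHLH38 stood at 38.6, 17.1 and 35.9 CPM in Col-0 ABA and 19.6, 14.0 and 18.8 CPM in vnd7 ABA, which overlapped, and had a difference of -1.07 ± 0.35. The coumarin oxygenase CYP82C4 fell by 2.44 ± 0.52 in Col-0 and 4.82 ± 0.62 in vnd7. F6'H1, the first enzyme of coumarin synthesis, fell in both with a difference of 0.32 ± 0.20, and the coumarin exporter ABCG37 with one of 0.03 ± 0.18. OPT3, a phloem iron transporter, rose by 1.06 ± 0.15 in Col-0 and 0.40 ± 0.15 in vnd7, the vnd7 call (adjusted p = 0.0427) being lost in 14 of 27 alternatives, with a highest adjusted p of 0.222 without vnd7 mock replicate 2.

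As a whole, 15 of 18 tested iron genes had a lower response in vnd7 (10279 of 20869 over all genes). Their median was -0.71 beside 0.00 for all genes. Leaving out 1 library moved that median between -0.90 (without Col-0 ABA replicate 2) and -0.53 (without Col-0 ABA replicate 3) and the count of unadjusted p under 0.05 between 6 and 11. In Col-0, 2 members rose and 8 fell, and in vnd7 1 rose and 13 fell. MYB72 had 0 reads in vnd7 ABA and 9 in Col-0 ABA, and the median without it was -0.66. In vnd123, which shares the Col-0 libraries, the median difference was 0.06. Root hair and epidermis markers, the tissue where FRO2 and IRT1 act, had a median difference of 0.11, with all 11 intervals within 1 log2 unit.

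**Figure D4:**
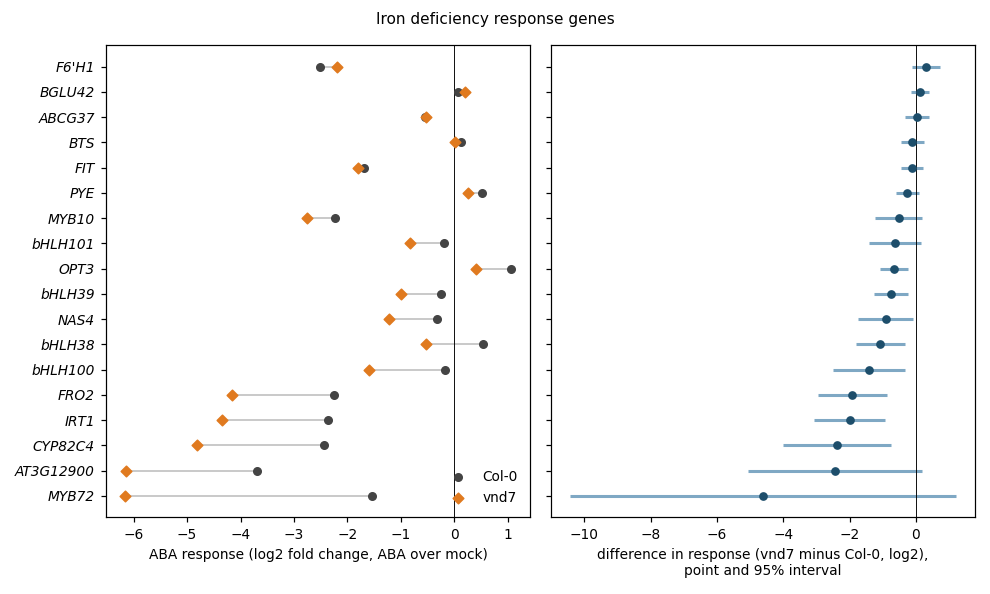
Iron deficiency response genes, 18 tested. Left, ABA response (log2 fold change of ABA over mock) in Col-0 (grey circles) and vnd7 (orange diamonds). Right, difference in response (vnd7 minus Col-0, log2) with its 95% interval. FRO2 (-1.91) and IRT1 (-2.00) have intervals below 0, while FIT (-0.11), ABCG37 (0.03) and F6'H1 (0.32) have intervals that hold 0; no gene passed over all genes tested.

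The genes with the smallest unadjusted p were read by a rule that took 8 in each direction, and none passed (adjusted p = 0.895 or more in edgeR). Among those with a higher response in vnd7 was SFH3, annotated as SEC14-like 3, a family of lipid transfer proteins. It stood at 18.4, 17.2 and 15.8 CPM in Col-0 mock, 16.9, 17.8 and 20.3 CPM in Col-0 ABA and 16.7, 17.2 and 17.3 CPM in vnd7 mock, but at 26.2, 26.9 and 25.5 CPM in vnd7 ABA, above all the others. SFH3 rose in vnd7 (0.62 ± 0.08, adjusted p = 3.85e-06) beside 0.10 ± 0.08 in Col-0 (adjusted p = 0.388). The difference was 0.52 ± 0.11, and within ABA the genotypes differed by 0.51 (adjusted p = 0.00444), a call kept in all 26 alternatives. The library kit did not mark strand. Reads in the stretch that SFH3 shares with the overlapping gene AT2G21530 therefore cannot be told apart by strand. The same holds here for the stretches that other genes share with their neighbours. The genes concerned are ABI1, RAB18, LEA7, CESA4, CESA7, XCP1, LAC17, ACL5, VND2, VND6, VNI2, bHLH38, DIN6, BCAT2, FLC, CPK2, NOGC1 and AT3G55910. The length of the shared stretches was not measured.

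Other genes in this direction, CPK2 apart, were repressed by ABA in Col-0 and less so, or not, in vnd7. AT1G14960, annotated as a polyketide cyclase or lipid transport protein, fell by 1.41 ± 0.09 in Col-0 and 0.81 ± 0.09 in vnd7. The subtilase AT5G45650 fell by 1.29 ± 0.13 and 0.57 ± 0.12, and the cytochrome b5 gene CB5-C fell by 1.63 ± 0.15 and 0.84 ± 0.14. BR6OX2, which makes the brassinosteroid brassinolide, fell in Col-0 (-0.34, adjusted p = 0.00284) beside 0.11 in vnd7 (adjusted p = 0.297). NOGC1, named as a guanylate cyclase, fell in Col-0 (-0.66, adjusted p = 0.00251) beside 0.16 in vnd7 (adjusted p = 0.455), and the calcium-dependent kinase gene CPK2 rose in vnd7 (0.32, adjusted p = 0.00154) beside -0.06 in Col-0 (adjusted p = 0.570).

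The acyltransferase gene AT5G47980 belonged to this group. It lies next to THAD in the thalianol cluster, a run of neighbouring genes that make root triterpenes. It stood at 45.9, 41.0 and 49.1 CPM in Col-0 mock and 14.3, 13.5 and 14.2 CPM in Col-0 ABA, against 48.9, 38.1 and 48.1 CPM and 26.5, 19.6 and 22.1 CPM in vnd7. Its ABA libraries were higher in vnd7 without overlap (0.70, adjusted p = 0.0108, lost in 2 of 26 alternatives: 0.0509 without Col-0 ABA replicate 2 and 0.0973 without vnd7 ABA replicate 1), and its difference in response was 0.71 ± 0.16. The gene list of the thalianol and marneral clusters did not include AT5G47980. THAS1, the thalianol synthase, fell by 1.4 ± 0.15 in Col-0 and 1.00 ± 0.15 in vnd7, and THAH, the thalianol hydroxylase, fell by 0.86 ± 0.11 and 0.54 ± 0.11. THAD, the thalian-diol desaturase, stood at 225, 149 and 177 CPM in Col-0 ABA and 273, 271 and 283 CPM in vnd7 ABA, without overlap. It fell in Col-0 (-0.68 ± 0.12, adjusted p = 1.71e-04) beside -0.24 ± 0.12 in vnd7 (adjusted p = 0.134), a difference of 0.44 ± 0.17. The marneral synthase MRN1 rose in both, by 4.03 ± 0.24 and 3.97 ± 0.23, with an interval of the difference of -0.72 to 0.58, and stood at 89.2, 95.5 and 73.8 CPM in Col-0 ABA and 150, 171 and 156 CPM in vnd7 ABA. Between genotypes, MRN1 passed neither in mock nor in ABA. CYP71A16, the marneral oxidase, rose by 0.59 ± 0.08 in Col-0 and 0.84 ± 0.08 in vnd7. Within ABA, CYP71A16 was higher in vnd7 by 0.44 (edgeR adjusted p = 0.0219). That was the only such call of the list, and it was lost in 5 of 26 alternatives. The 6 listed cluster genes, without AT5G47980, had a median difference of 0.29.

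In the other direction the smallest unadjusted p belonged to AT4G22990, annotated with an SPX domain, a fold known to sense inositol phosphates. It stood at 1.2, 1.09 and 1.22 CPM in Col-0 mock and 4.74, 5.08 and 3.91 CPM in Col-0 ABA, against 2.38, 1.96 and 1.57 CPM and 3.63, 2.87 and 3.31 CPM in vnd7. Its vnd7 libraries lay above those of Col-0 in mock and below them in ABA, and the difference was -1.24 ± 0.28. Other genes of this direction were induced less. PR4, a pathogenesis-related protein gene, rose by 1.31 ± 0.07 in Col-0 and 0.90 ± 0.07 in vnd7, and AT1G67870, a glycine-rich protein gene, rose by 1.37 ± 0.13 and 0.64 ± 0.13. AT1G19530 rose in Col-0 (2.12 ± 0.33, adjusted p = 4.73e-05) beside 0.20 ± 0.32 in vnd7 (adjusted p = 0.693), and AT3G55910 rose in Col-0 (0.95, adjusted p = 1.81e-04) beside 0.00 in vnd7 (adjusted p = 0.990).

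The remaining 3 genes fell in vnd7. SDR3, a short-chain dehydrogenase gene, fell by 0.71 ± 0.07 in Col-0 and 1.09 ± 0.07 in vnd7. AT3G20270 fell in vnd7 (-0.87 ± 0.14, adjusted p = 5.83e-05) beside -0.05 ± 0.14 in Col-0 (adjusted p = 0.837). AT3G05160, a major facilitator superfamily gene, fell in vnd7 (-0.95 ± 0.19, adjusted p = 5.13e-04) beside 0.15 ± 0.19 in Col-0 (adjusted p = 0.605).

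**Figure D5:**
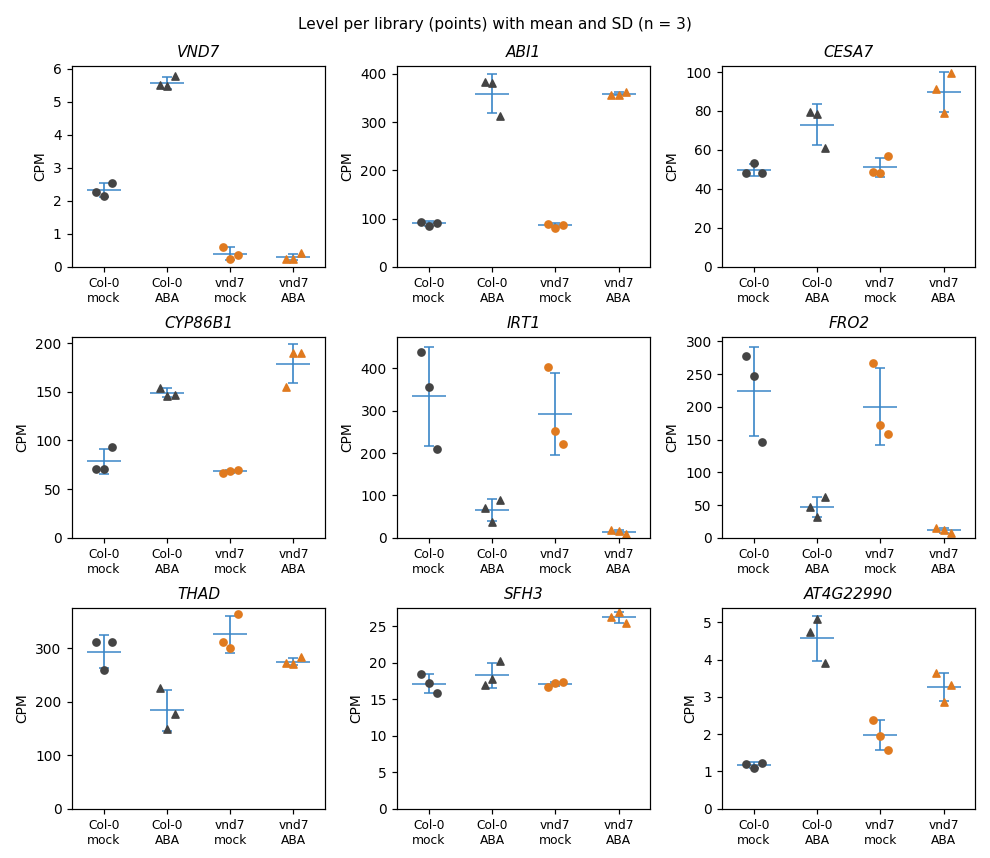
Level in CPM (vertical axes, from 0) of 9 genes in each of the 12 libraries, with Col-0 in grey, vnd7 in orange, mock as circles and ABA as triangles; the blue bar gives mean and SD (n = 3). VND7 is at most 0.605 CPM in all vnd7 libraries, ABI1 and CESA7 rise in both genotypes, and FRO2 and IRT1 are lowest in the 3 vnd7 ABA libraries (7.07 to 18.5 CPM).

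Differences among procambium genes, the stem-cell tissue from which vessels form, were mostly negative. Their median was -0.25, negative in 8 of 11 tested genes (10279 of 20869 over all genes). At an unadjusted p under 0.05 stood 3 genes (27.3%, beside 4% of all genes), and 5 of 11 intervals lay within 1 log2 unit. The values ran from -1.47 to 0.59. TMO6, a DOF transcription factor of vascular cell division, stood at 26.8, 24.6 and 24.7 CPM in Col-0 mock and 29.8, 29.1 and 29.6 CPM in Col-0 ABA, against 30.0, 24.6 and 28.1 CPM and 25.0, 23 and 25.4 CPM in vnd7. It rose in Col-0 (0.22, adjusted p = 0.0332) beside -0.17 in vnd7 (adjusted p = 0.0918), and the difference was -0.39 ± 0.11. Its call in Col-0 was lost in 12 of 27 alternatives, with a highest adjusted p of 0.148 with unscaled library sizes. WOX14, a homeobox gene of the vascular cambium, fell by 0.90 ± 0.20 in Col-0 and 1.62 ± 0.20 in vnd7. LBD3 fell in vnd7 (-2.05 ± 0.40, adjusted p = 4.69e-04) beside -0.57 ± 0.39 in Col-0 (adjusted p = 0.294). PXY, the receptor kinase of the cambium, fell in both with a difference of 0.05 ± 0.17. Xylem patterning genes, among them the HD-ZIP III factors, had a median of -0.01 and no member at an unadjusted p under 0.05.

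Hypoxia genes, which low oxygen induces, were induced by ABA, with 7 of 11 tested members rising and 1 falling in Col-0 and 6 rising and 1 falling in vnd7. Their median difference was -0.43, between -0.89 without vnd7 ABA replicate 3 and -0.23 without vnd7 ABA replicate 1. LBD41, a hypoxia marker, stood at 3.29, 3.59 and 4.10 CPM in Col-0 mock and 13.1, 12.4 and 9.48 CPM in Col-0 ABA, against 7.04, 4.17 and 10.6 CPM and 6.51, 10.6 and 16.5 CPM in vnd7. The Col-0 groups were apart, the vnd7 groups overlapped and vnd7 ABA replicate 3 stood highest. ADH1, an alcohol dehydrogenase of fermentation, rose in both, by 3.03 ± 0.29 and 2.45 ± 0.28.

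Dark-inducible genes, which respond to sugar shortage, had the lowest list median, -1.36 over 6 tested genes, between -2.32 and -0.87 when 1 library was left out. Only 1 of those 6 genes had an interval within 1 log2 unit. In vnd123, which shares the Col-0 libraries, the median was -2.18. DIN6, an asparagine synthetase, stood at 5.41, 1.35 and 1.91 CPM in Col-0 mock and 8.13, 4.87 and 1.56 CPM in Col-0 ABA, against 4.18, 0.552 and 2.73 CPM and 0.142, 0.439 and 0.427 CPM in vnd7. It fell in vnd7 (-2.90 ± 0.82, adjusted p = 0.00920) beside 0.75 ± 0.66 in Col-0 (adjusted p = 0.431), a call lost with limma-voom (0.149) and without vnd7 mock replicate 1 (0.0519). BCAT2, a branched-chain aminotransferase, rose in Col-0 (1.95 ± 0.46, adjusted p = 0.00261) beside -0.06 ± 0.46 in vnd7 (adjusted p = 0.938). Within the groups DIN6 varied more than 3-fold between libraries in all 4 groups.

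The FLC clade of MADS-box flowering repressors held both a low interaction value and a standing difference. FLC stood at 0.458, 0.493 and 0.431 CPM in Col-0 mock and 1.19, 0.757 and 0.878 CPM in Col-0 ABA, against 0.899, 0.406 and 0.531 CPM and 0.356, 0.0837 and 0.235 CPM in vnd7. It fell in vnd7 (-1.41 ± 0.45, adjusted p = 0.0207) beside 1.03 ± 0.42 in Col-0 (adjusted p = 0.0688), and the difference was -2.44 ± 0.62. The call in vnd7 was lost without vnd7 ABA replicate 2 (adjusted p = 0.0944), without vnd7 ABA replicate 3 (0.0511) and without vnd7 mock replicate 1 (0.130). MAF5, a relative of FLC, stood at 0.741, 1.25 and 0.993 CPM in Col-0 mock and 0.963, 1.16 and 1.54 CPM in Col-0 ABA, against 6.55, 4.56 and 4.45 CPM and 4.82, 5.29 and 5.38 CPM in vnd7. It was higher in vnd7 by 2.37 in mock (edgeR adjusted p = 1.21e-06) and 2.07 in ABA (adjusted p = 5.83e-06), and its ABA response differed by -0.30 ± 0.28. MAF4, another relative, was higher by 1.12 in mock (adjusted p = 1.14e-04) and 0.84 in ABA (adjusted p = 0.00444).

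The remaining lists also had no member past the threshold. Endodermis genes had a median difference of 0.14 and root hair genes 0.11. Phloem genes had -0.07, root cap -0.11, cell cycle and meristem -0.03 and photosynthesis 0.01. Hormone lists gave -0.05 for auxin, -0.08 for cytokinin and 0.15 for jasmonate. The jasmonate differences ran from -0.31 to 3.24. There VSP2 was the only member of 8 tested (12.5%) at an unadjusted p under 0.05, beside 4% of all genes. Defence genes had -0.06, circadian clock genes -0.02, PYK10 and its endoplasmic reticulum bodies -0.13 and heat shock genes -0.06. Nutrient lists gave -0.00 for nitrate, 0.07 for phosphate and -0.38 for sulfate. Within these lists the lowest unadjusted p belonged to members such as BRN2, a root cap NAC factor, which rose in Col-0 (1.1 ± 0.21, adjusted p = 3.57e-04) beside 0.23 ± 0.20 in vnd7 (adjusted p = 0.419). SULTR1;3, a phloem sulfate transporter, rose by 2.42 ± 0.29 in Col-0 and 1.38 ± 0.28 in vnd7, and the root sulfate transporter SULTR1;1 rose by 0.89 ± 0.16 and 1.37 ± 0.16. PLT2, a stem-cell factor of the root meristem, did not pass in either response (0.36 and -0.19). For the other lists, the member with the smallest unadjusted p had a difference of 1.35 (the receptor PYL12), 0.27 (AAO3, the last enzyme of ABA synthesis), 0.31 (GSO1, a receptor kinase of the Casparian strip), -0.20 (TMO5, a xylem factor) or 0.26 (CPC, a root hair factor). The corresponding differences were 0.21 for the photosystem gene PSAF, -0.18 for the aquaporin TIP2;3, -0.62 for the auxin-induced LBD16, -0.83 for the cytokinin response regulator ARR7 and 0.34 for the defence factor MYB51. They were -0.40 for the clock-related RVE1, -0.15 for the beta-glucosidase PYK10, 0.29 for the nitrate reductase NIA2, 0.33 for the phosphatase PAP17 and 0.31 for the chaperone HSP90.1. None of these passed.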

How the data were processed

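RNA was measured by sequencing in 18 root libraries, 3 for each of 3 genotypes and 2 treatments, of which the 12 of Col-0 and vnd7 enter the comparison. The deposited values are raw counts per gene; per the submitters' processing notes the authors used HISAT2 and HTSeq, with versions, genome build and annotation not given in the sources used here. Per the labels' protocols, the library kit was not a stranded one. Of 34218 features, 32833 were locus codes and 32548 of these matched TAIR10.1, used here for names and overlaps alone. No column belonged to no sample.

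Counts were filtered by edgeR's filterByExpr, scaled by TMM and fitted with edgeR 4.0.16 (R 4.3.3) by its quasi-likelihood test, with 1 coefficient for each of 6 groups over all 18 libraries. The interaction is (vnd7 ABA minus vnd7 mock) minus (Col-0 ABA minus Col-0 mock). P-values were adjusted by Benjamini-Hochberg over all 20869 genes, with a threshold of 0.05. Standard errors were obtained as the size of the log2 difference over the square root of the test's F statistic. The 95% intervals use them. The log2 differences include a prior count, so these standard errors are approximate at low counts. The procedure was tested on simulated data. Totals per library, given in the report, set the precision at low levels.

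Genes were named by a rule: the VND genes and VNI2, the 8 smallest unadjusted p in each direction, the smallest in each of 35 lists, 14 fixed reporters, and genes called in both responses with opposite signs. The other genes given are members of those lists. The members and lists were chosen with earlier results of these data known. Alternatives were DESeq2 1.42.0, limma-voom (limma 3.58.1), other scalings and filters, the 12 libraries alone, a replicate block and each library left out. Those for the vnd7 against Col-0 comparisons within 1 treatment were chosen after seeing the data. Replicates differed by more than sampling noise, and each was counted as its own sample. Deviations of same-numbered libraries correlated at over 0.1 in all 3 pairs between Col-0 mock and vnd7 mock (0.476, 0.102 and 0.376). In the other comparisons made here, not all 3 pairs did. A pair with unlike numbers reached 0.390 (vnd7 ABA replicate 2 with vnd7 mock replicate 1), so these values alone do not establish a pairing. The labels give the numbers no shared batch or day.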

Additional observations from a re-analysis of the deposited data

How the results depend on the processing

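No gene passed in the interaction under any alternative run: 0 with DESeq2 (906 genes at an unadjusted p under 0.05), limma-voom (826), RLE size factors (841), unscaled library sizes (850), no filter on low counts (966), a mean log2 CPM above 1 (664) and the 12 libraries alone (816). Leaving out 1 library gave 0 each time, with 679 to 1108 genes at an unadjusted p under 0.05. The correlations of same-numbered libraries given above did not establish that replicate numbers pair libraries. With the replicate block 0 genes passed (931 unadjusted), and with the block within genotype 0 (900 unadjusted, smallest adjusted p 0.24).

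The counts of vnd7 against Col-0 moved with DESeq2, to 38 in mock and 159 in ABA, and the cause was not tested; leaving out 1 library gave 10 to 19 in mock and 24 to 46 in ABA. The replicate block gave 17 in mock and 49 in ABA, beside 14 and 34 without it, and no filter gave 15 and 49. The block within genotype could not be used there, since it leaves that contrast to 1 replicate. Of 1934 values of 72 named genes, 46 in 12 genes changed sign, none of them past the threshold. Depth limits the result at low levels. The planned description of promoter motifs was not run.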
